A study of Homo sapiens with 16 samples.

Results

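SGK1, RASD1 and 8 further genes that respond to glucocorticoids or belong to the SGK and ZFP36 families (SGK3, TSC22D3, PER1, KLF9, ERRFI1, ZBTB16, ZFP36L2 and ZFP36) were followed in prostate cancer cells with inducible Runx2. They were taken as every probe of the signal table whose platform annotation carries one of the 10 symbols, which gave 18 of the 24526 probes and 10 of the 16922 genes with a symbol. A probe counted as detected, or above background, on any array that gave it a detection p below 0.01. Of the 18 probes, 12 lay above background on at least 4 arrays, 10 on all 16 and 5 on none. At least 1 probe lay above background on 4 or more arrays for 9 of the 10 genes, the exception being PER1. The question was whether other genes of the glucocorticoid response followed SGK1 and RASD1 on each day of treatment. The members were chosen by the known response of their genes to glucocorticoids and by the Dox differences of SGK1 and RASD1 on both days, so the Dox differences of the set are described with their standard errors and carry no p-value.

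Glucocorticoids enter the cell and bind the glucocorticoid receptor, the product of NR3C1, which then moves to the nucleus and binds hormone response elements in DNA. Other steroid hormone receptors bind closely related elements, and several genes of the set answer more than one of these hormones as well as serum, stress kinases and cyclic AMP. SGK1 is among the best known genes of this kind, with TSC22D3, PER1, KLF9, ZBTB16 and DUSP1, and RASD1 was named for its induction by dexamethasone.

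C4-2B cells are a castration-resistant prostate cancer line derived from LNCaP cells. All 16 cultures were of the subline C4-2B/Rx2dox, which carries a lentiviral vector with a Flag-tagged mouse Runx2 cDNA under a Dox-dependent promoter, and with a constitutive promoter that drives the Dox-dependent activator rtTA3 and hygromycin resistance. The 4 groups, with 4 separate cultures each and 1 array per culture, were vehicle for 24 h (vehicle day 1), doxycycline (Dox) at 250 ng/ml for 24 h (Dox day 1), vehicle for 48 h (vehicle day 2) and the same Dox dose for 48 h (Dox day 2). The vehicle was distilled water, and the medium of every group held serum. No array came from Dox-treated cells without the Runx2 cDNA, so effects of Dox and of Runx2 cannot be told apart here. No glucocorticoid was added to any group per the labels.

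The arrays of a group correlated with each other at 0.9933 or more over all probes, and 40.1% to 42.2% of the probes lay above background on each array. The median raw signal was 119 to 139 on the day 1 arrays and 107 to 113 on the day 2 arrays, and the slide of each array was not given, so day and slide cannot be told apart. All 8 measured markers of prostate luminal cells were above background on every array. Their summed linear signal was 5385 to 5695 with vehicle and 4508 to 4812 with Dox on day 1, and 7201 to 7743 with vehicle and 5306 to 5713 with Dox on day 2, and the part of this shift in the values below was not tested. None of 4 hematopoietic markers was above background on any array, against 1 of 3 basal, 1 of 5 stromal and 1 of 4 endothelial markers on some arrays.

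SGK1 encodes the serum- and glucocorticoid-regulated kinase, which phosphorylates the ubiquitin ligase NEDD4L and thereby keeps sodium channels at the cell surface. Its normalized log2 signal was 6.45, 6.40, 6.67 and 6.61 in the vehicle cultures of day 1 and 10.83, 10.76, 10.71 and 10.63 in the Dox cultures. On day 2 it was 6.57, 6.28, 6.45 and 6.57 with vehicle and 11.98, 11.83, 11.79 and 11.92 with Dox. The Dox cultures thus lay far above the vehicle cultures on both days, the Dox cultures of day 2 lay above those of day 1, and the vehicle cultures of both days overlapped. The log2 difference was 4.20 ± 0.079 on day 1 and 5.41 ± 0.079 on day 2 (standard error, n = 4 arrays a group), or 18.4-fold and 42.6-fold. In these values 1 probe rose by more on each day. Over 25 alternatives the differences ran from 3.30 to 4.26 and from 4.44 to 5.48, lowest without background correction. Between the days the difference widened by 1.21 ± 0.11 log2 units. The Dox level changed by 1.15 and the vehicle level by -0.07 ± 0.079, given as a description. The extra SGK1 RNA could come from more cells that express it or from more RNA per cell, which bulk signals cannot tell apart.

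RASD1, a small Ras-related GTPase, rose beside SGK1 on both days. Its log2 signal was 5.34, 5.30, 5.43 and 5.38 with vehicle on day 1, where only the third culture was above background, and 9.91, 9.97, 9.88 and 9.91 with Dox. On day 2 it was 6.31, 6.36, 6.04 and 6.53 with vehicle and 10.44, 10.36, 10.60 and 10.44 with Dox. Vehicle and Dox cultures did not overlap on either day, and both treatments moved up from day 1 to day 2. The log2 difference was 4.56 ± 0.083 on day 1 and 4.15 ± 0.083 on day 2, the second being 17.8-fold. The day 1 value rests on a vehicle group with 1 of 4 arrays above background, so its size is uncertain and no fold is given. Over 25 alternatives the differences ran from 3.03 to 4.69 and from 3.15 to 4.23. RASD1 stood at rank 1 and rank 9 among the rises of all 24526 probes in these values, but without background correction its day 1 difference of 3.03 was below the 3.30 of SGK1. The vehicle level rose by 0.94 ± 0.083 between the days and the Dox level by 0.54, given as a description. The size of the vehicle rise rests on the same day 1 group and ran from 0.37 to 1.03 over the alternatives. The change in the Dox difference between the days, -0.40 ± 0.12, turned to 0.13 without background correction and to -0.07 with a larger offset. Its direction was thus not stable for a gene whose vehicle signal lies this close to background.

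**Figure D1:**
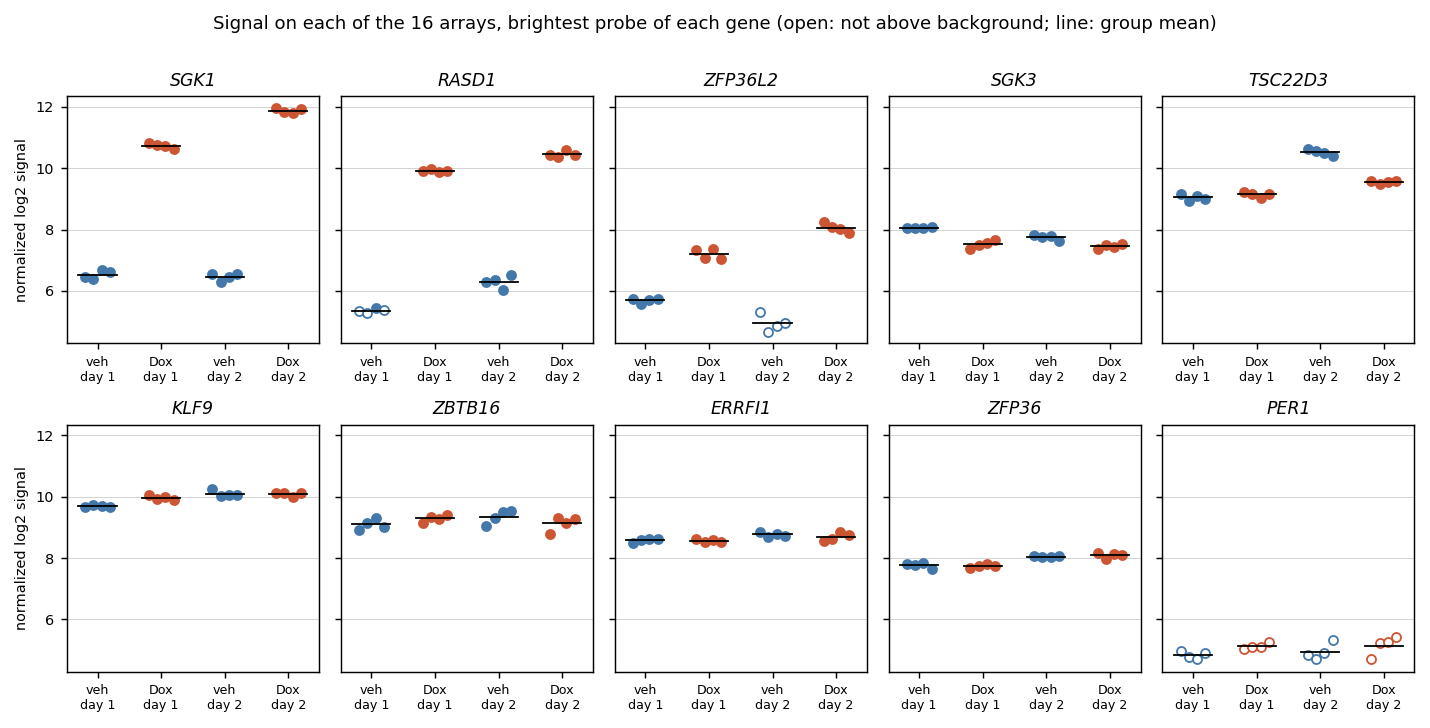
Normalized log2 signal (y axis) of the brightest probe of each of the 10 genes on each of the 16 arrays, grouped along the x axis by treatment and day, with the group mean as a line and open circles for arrays not above background. SGK1, RASD1 and ZFP36L2 separate Dox (orange, on top) from vehicle (blue) on both days, and SGK3 does so with vehicle on top. TSC22D3 separates them on day 2 only with vehicle on top, and KLF9 on day 1 only with Dox on top. PER1 separates them on day 1 only, and stays below background on all 16 arrays.

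The sequences before the starts of SGK1 and RASD1 are shown because the genes rose side by side, so that any shared letters can be seen. RefSeq windows of GRCh38.p14, from 250 bases before to 50 bases after an annotated start, were searched for 7 of the 10 genes (12 windows). No window of SGK3, ZBTB16 or ZFP36L2 was searched. The letters searched on both strands were the Runx hexamer ACCACA, the hormone response half-site AGAACA and the palindromic hormone response element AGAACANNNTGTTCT, which contains the half-site. The clock factors' E-box CACGTG and the TATA box TATAAA were searched as well. Of all 35116 windows, 13.1% hold the Runx hexamer, 14.8% the half-site and 0.00285% the palindrome. Printed in lower case are 250 bases before a start, with any match of the Runx hexamer, half-site or palindrome in capitals. Those before the start nearest the 3′ end of SGK1 (chr6:134174867-134175116, minus strand) and before the start of RASD1 (chr17:17496396-17496645, minus strand) read as follows.
SGK1: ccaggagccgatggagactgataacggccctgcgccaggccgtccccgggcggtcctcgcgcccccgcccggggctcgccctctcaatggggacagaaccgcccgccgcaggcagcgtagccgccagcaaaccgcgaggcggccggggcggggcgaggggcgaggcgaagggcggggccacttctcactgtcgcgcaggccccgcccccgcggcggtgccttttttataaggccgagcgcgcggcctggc
RASD1: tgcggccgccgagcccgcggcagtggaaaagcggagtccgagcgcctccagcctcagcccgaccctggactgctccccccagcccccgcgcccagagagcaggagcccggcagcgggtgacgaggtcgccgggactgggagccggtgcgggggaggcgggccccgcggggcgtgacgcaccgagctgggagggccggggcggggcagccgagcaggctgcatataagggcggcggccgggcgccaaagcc
Neither stretch holds the Runx hexamer, the half-site or the palindrome, which says only that they are not in these windows. The SGK1 stretch holds the TATA box as its reverse complement at -27, and the RASD1 window holds none. Of the 12 windows 4 hold a TATA box, as do 11.5% of all windows. Of the 3 starts of SGK1, only the middle one has a half-site, beginning 5 bases after the start base. No window of KLF9, PER1, ERRFI1 or ZFP36 holds a Runx hexamer or a half-site, and the PER1 window holds the clock factors' E-box CACGTG at -173, as do 7.26% of all windows.

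ZFP36L2 followed SGK1 and RASD1 on both days, at a smaller size. The protein binds AU-rich elements of mRNAs and speeds their decay. Its log2 signal on day 1 was 5.74, 5.58, 5.71 and 5.74 with vehicle and 7.34, 7.08, 7.38 and 7.04 with Dox. On day 2 the vehicle cultures, at 5.30, 4.66, 4.86 and 4.96, were all not above background, and the Dox cultures were at 8.24, 8.10, 8.01 and 7.90. All Dox cultures lay above all vehicle cultures. The log2 difference of day 1 was 1.52 ± 0.12, or 2.86-fold, and on day 2 the Dox level was at least 6.18-fold higher, taking the lowest signal among probes above background as the vehicle level (fitted log2 difference 3.12 ± 0.12). That bound holds for this background correction, since without it the fitted difference was 1.59 and that of day 1 0.76. The fitted values placed ZFP36L2 at rank 103 and rank 37 among the rises. The Dox difference grew by 1.60 ± 0.16 between the days, given as a description because its values of both days were known beforehand. The fitted vehicle signal fell by 0.75 and the Dox signal rose by 0.85, also given as a description. With the day 2 vehicle cultures not above background, the fall is bounded at 1.20-fold or more. The related ZFP36, known as tristetraprolin, was at 7.65 to 7.83 with vehicle and 7.66 to 7.81 with Dox on day 1, and at 8.02 to 8.07 and 7.96 to 8.17 on day 2, so its groups overlapped on each day (log2 differences -0.02 and 0.05, each ± 0.060).

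SGK3, a relative of SGK1 that sits on endosomes through a lipid-binding domain, moved the other way. On its brighter probe (ILMN_1747020) the log2 signal on day 1 was 8.06, 8.07, 8.04 and 8.09 with vehicle and 7.38, 7.51, 7.55 and 7.66 with Dox. On day 2 it was 7.82, 7.77, 7.80 and 7.62 with vehicle and 7.38, 7.49, 7.45 and 7.53 with Dox. The groups did not overlap on either day, with every Dox culture below every vehicle culture. Of all probes, 11% lay lower and 10.3% higher without overlap on day 1, and 14.1% and 13.9% on day 2. Among probes detected on 4 or more arrays these shares were 21.9% and 20.5%, then 28.2% and 27%. Every statement here that groups did not overlap stands beside these shares. The log2 difference was -0.54 ± 0.064 on day 1 and -0.29 ± 0.064 on day 2. A second probe (ILMN_2366703) gave -0.60 ± 0.11 and -0.33 ± 0.11, with overlapping groups on day 2, and the third probe was not above background on any array.

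**Figure D2:**
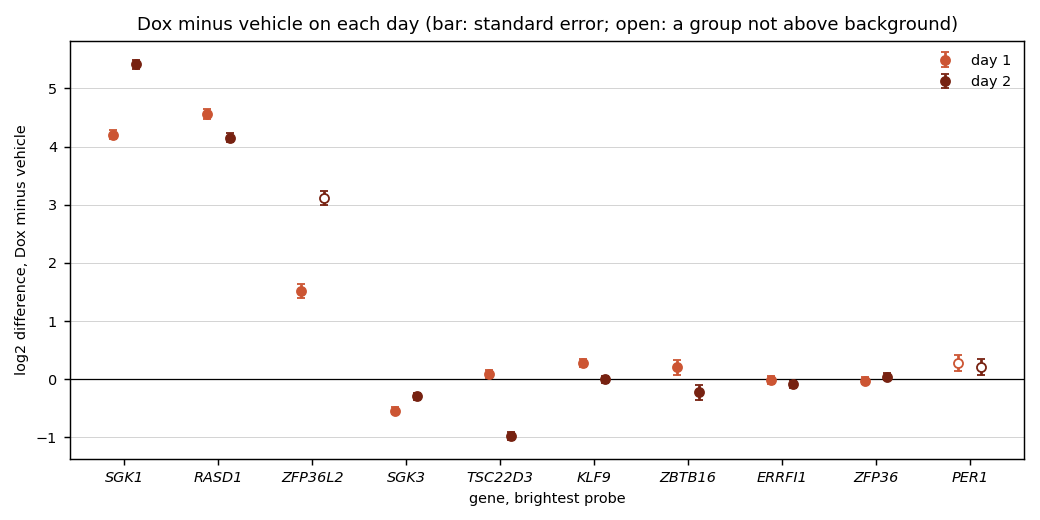
Log2 difference between Dox and vehicle (y axis, ± standard error, 4 arrays a group) for the brightest probe of each gene (x axis) on day 1 (orange) and day 2 (brown), with open circles where a whole group was not above background. SGK1 reaches 4.20 and 5.41 and RASD1 4.56 and 4.15, ZFP36L2 is next, and TSC22D3 is near 0 on day 1 and at -0.97 on day 2.

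By the brightest probe, 4 of the 10 genes passed an adjusted p of 0.05 upward on day 1 (SGK1, RASD1, ZFP36L2 and KLF9) and 1 downward (SGK3), where 8.91% of all probes passed upward and 9.94% downward. On day 2, 3 passed upward (SGK1, RASD1 and ZFP36L2) and 2 downward (SGK3 and TSC22D3), where 14.4% of all probes passed upward and 14.5% downward. Among the probes detected on 4 or more arrays the shares were 18.8% and 20.8% on day 1 and 28.5% and 29.9% on day 2. These counts are a description, since the choice of members used the same differences. Only SGK1, RASD1 and ZFP36L2 passed upward on both days. The change in the Dox difference from day 1 to day 2 passed upward for ZFP36L2 and downward for TSC22D3 and KLF9. Of all probes 5.33% passed upward and 5.6% downward, or 11% and 12.1% of the detected probes. For SGK1 and RASD1, picked by the differences of both days, that change is a description only. The same holds for ZFP36L2, whose differences of both days were known beforehand.

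TSC22D3 encodes the glucocorticoid-induced leucine zipper protein GILZ, a widely used readout of the glucocorticoid receptor. On its brightest probe (ILMN_1748124), the log2 signal on day 1 was 9.17, 8.93, 9.10 and 9.0 with vehicle and 9.23, 9.17, 9.01 and 9.18 with Dox. On day 2 it was 10.63, 10.56, 10.51 and 10.41 with vehicle and 9.59, 9.5, 9.57 and 9.59 with Dox. The groups overlapped on day 1, and on day 2 every Dox culture lay below every vehicle culture. The log2 difference was 0.09 ± 0.067 on day 1 and -0.97 ± 0.067 on day 2, or 1.96-fold lower. A second probe of the same transcript (ILMN_2376403) gave 0.16 ± 0.084 and -0.99 ± 0.084. The difference therefore shifted by -1.06 ± 0.095 (limma adjusted p = 4.4e-07) and -1.15 ± 0.12 (limma adjusted p = 2.6e-06) on the 2 probes. With vehicle TSC22D3 rose by 1.48 between the days on the first probe (2.78-fold, limma adjusted p = 8.7e-10) and by 1.62 on the second (3.07-fold, limma adjusted p = 4.8e-09), while with Dox it rose by 0.41 and 0.47. The third probe was above background on 2 vehicle arrays of day 2 and on no other array, and the probes of the 2 other annotated transcripts were above background on none.

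TSC22D3 has 4 annotated starts in the promoter table, and 2 of its windows hold a Runx hexamer, at -208 and at -112 from the start. They are the only 2 of the 12 windows searched that hold this hexamer. Both are shown here on the strand of the gene (chrX:107716509-107716758 and chrX:107717063-107717312, minus strand) with the hexamer, as its reverse complement, in capitals.
TSC22D3 downstream start: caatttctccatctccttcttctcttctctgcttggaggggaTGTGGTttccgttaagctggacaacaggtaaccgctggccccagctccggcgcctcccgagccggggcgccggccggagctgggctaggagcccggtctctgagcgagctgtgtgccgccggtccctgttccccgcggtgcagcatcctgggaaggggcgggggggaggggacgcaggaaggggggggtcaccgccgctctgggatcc
TSC22D3 next start upstream: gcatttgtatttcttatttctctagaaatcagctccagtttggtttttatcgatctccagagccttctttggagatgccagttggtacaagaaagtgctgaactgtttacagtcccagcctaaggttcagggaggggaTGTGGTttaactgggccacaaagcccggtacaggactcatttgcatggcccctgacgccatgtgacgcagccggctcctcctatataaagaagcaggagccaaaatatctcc
A match is a description of letters, found in 13.1% of all windows, and no binding was measured.

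KLF9, a zinc finger transcription factor, was 9.67, 9.72, 9.69 and 9.67 with vehicle and 10.06, 9.92, 10.00 and 9.88 with Dox on day 1, without overlap. On day 2 it was 10.24, 10.02, 10.05 and 10.05 with vehicle and 10.13, 10.12, 9.99 and 10.13 with Dox, with overlap. The log2 difference was 0.28 ± 0.061 on day 1, or 1.21-fold, and 0.00 ± 0.061 on day 2. The shift between the days, -0.28 ± 0.087, passed the threshold (limma adjusted p = 0.046), but not under 17 of 25 alternatives, and with 1 array left out it passed only without replicate 4 of Dox day 1 or replicate 2 of vehicle day 2. The vehicle level of KLF9 rose by 0.40 between the days (limma adjusted p = 3.4e-04).

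ZBTB16, the transcriptional repressor PLZF, ranged from 8.91 to 9.31 with vehicle and from 9.16 to 9.41 with Dox on day 1, and from 9.04 to 9.54 and from 8.78 to 9.30 on day 2 (ILMN_2305407). Its groups overlapped on both days. The log2 differences were 0.20 ± 0.12 and -0.22 ± 0.12, and a second probe (ILMN_2402817) gave 0.14 ± 0.092 and -0.15 ± 0.092. The shift between the days did not pass the threshold on either (limma adjusted p = 0.16 and 0.19), except on the first probe with the replicate number as a block (limma adjusted p = 0.035) and on the second without replicate 3 of vehicle day 2 (limma adjusted p = 0.036).

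ERRFI1 encodes MIG6, an inhibitor of the EGF receptor kinase. It ranged from 8.49 to 8.63 with vehicle and from 8.52 to 8.63 with Dox on day 1, and from 8.70 to 8.86 and from 8.57 to 8.84 on day 2, and its groups overlapped on both days. The log2 differences were -0.01 ± 0.065 and -0.08 ± 0.065. PER1, a repressor of the circadian clock, was not above background on any array, so no fold is given for it. Its values were 4.71 to 4.96 with vehicle and 5.04 to 5.28 with Dox on day 1, without overlap, and 4.70 to 5.32 and 4.71 to 5.41 on day 2, with overlap.

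The vehicle cultures give the course of the set without Dox. The difference is taken between vehicle arrays alone, although all 16 arrays share the normalization and the estimate of the spread. The vehicle arrays also gave the Dox differences of SGK1, RASD1 and ZFP36L2, which were known beforehand. Changes of these genes between the days, and the counts that hold them, are a description. RASD1, TSC22D3, KLF9 and ZFP36 rose from day 1 to day 2 with vehicle, and SGK3 and ZFP36L2 fell, which is 4 genes up and 2 down. Of all probes 5.3% passed upward and 5.27% downward, and of the probes detected on 4 or more arrays 11.2% passed each way. ZFP36 rose by 0.28 (limma adjusted p = 0.0056) and SGK3 fell by 0.31 (limma adjusted p = 0.0042) on its brighter probe. The values for SGK1 (-0.07), ERRFI1 (0.19, limma adjusted p = 0.071, and 0.029 to 0.19 over 25 alternatives, of which 4 passed, 1 of them, at 0.047, without replicate 3 of Dox day 2), ZBTB16 (0.26, limma adjusted p = 0.25) and PER1 (0.11, limma adjusted p = 0.75) did not pass. With Dox, 5 of the 10 genes rose from day 1 to day 2 (SGK1, RASD1, ZFP36L2, TSC22D3 and ZFP36) and the other 5 did not pass. Of all probes 10.1% rose and 9.41% fell with Dox, or 20.4% and 20.3% of the detected probes. Medium age, cell density and slide were not separated from day by the design.

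**Figure D3:**
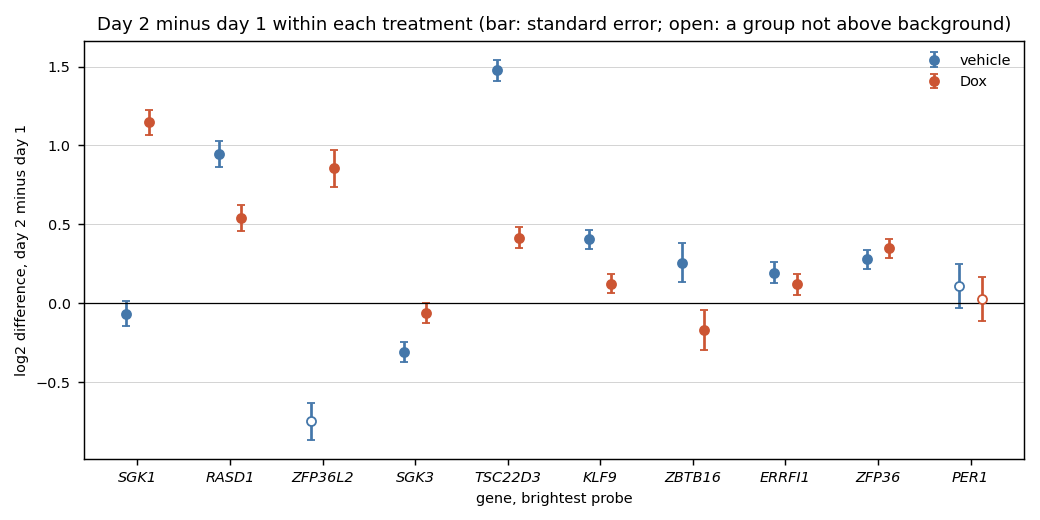
Log2 difference between day 2 and day 1 (y axis, ± standard error, 4 arrays a group) within vehicle (blue) and within Dox (orange) for the brightest probe of each gene (x axis), with open circles where a whole group was not above background. TSC22D3 rises by 1.48 with vehicle and 0.41 with Dox, SGK1 by -0.07 and 1.15, and ZFP36L2 falls with vehicle and rises with Dox.

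Across the 16 arrays, which share the 4 groups, log2 values of SGK1 correlated at r = 0.982 with RASD1 and 0.969 with ZFP36L2. The coefficient was 0.533 for PER1, which was above background on no array, 0.429 for KLF9 and 0.149 for ZFP36. It was -0.084 for ZBTB16, -0.144 for ERRFI1, -0.333 for TSC22D3 and -0.848 for SGK3. TSC22D3 correlated with ERRFI1 at 0.73, with ZFP36 at 0.686 and with KLF9 at 0.639. The coefficients mostly restate the group means and are given as a description. The patterns were also compared with 9329 probes that carry a symbol and were above background on all 4 arrays of a group. The 5 genes with the patterns most like SGK1 were DENND2A (r = 0.9971), SLC37A1 (0.9968), PGC (0.9963), SCNN1A (0.9959) and DNMT3L (0.9957). Vehicle means of DENND2A (4.74 on day 1, 4.65 on day 2) and DNMT3L (4.56 and 4.59) lay under the lowest background limit of any array, 5.35. Both could therefore enter the comparison only through a Dox group, where they are high, and their r is a description only. Those most like RASD1 were TWF2 (0.9957), ACKR3 (0.9937), KLK2 (0.9935), PRKAB1 (0.9928) and LIMA1 (0.9921).

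Genes outside the set that glucocorticoids are known to induce were split between rises and falls with Dox. Of 30 listed, 27 were measured, of which 8 were above background on no array. Dox raised 7 and lowered 6 of them on day 1 while 14 missed the threshold, and the median log2 difference was -0.05 (all probes -0.01). The counts of day 2 were 8 higher, 8 lower and 11 short of the threshold, with a median of 0.06 (all probes -0.01). Of all probes 8.91% were higher and 9.94% lower on day 1 and 14.4% and 14.5% on day 2. Among probes detected on 4 or more arrays the shares were 18.8%, 20.8%, 28.5% and 29.9%, and the counts of every list that follows stand beside these same shares. DUSP1, a phosphatase that inactivates MAP kinases, rose most, and its rise in these data was known before the list was made. It was at 7.81 to 8.01 with vehicle and 10.82 to 10.89 with Dox on day 1. The log2 difference was 2.95 ± 0.057 on day 1 and 2.99 ± 0.057 on day 2, given as a description. DUSP1 is included in the counts of higher genes on both days. SCNN1A, the alpha subunit of the epithelial sodium channel that SGK1 acts on, rose by 1.81 ± 0.077 (limma adjusted p = 2.0e-11) and by 2.14 ± 0.077 (limma adjusted p = 4.7e-13). ANGPTL4, an inhibitor of lipoprotein lipase, rose by 1.17 ± 0.12 on each day (limma adjusted p = 1.6e-06 and 5.8e-07).

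Other genes of the same list fell. The metallothionein MT1X fell by 1.49 ± 0.072 on day 1 (limma adjusted p = 9.3e-11) and by 0.93 on day 2 (limma adjusted p = 1.0e-08), and MT2A by 0.48 (limma adjusted p = 8.2e-05) and 1.25 (limma adjusted p = 2.2e-10), although metallothionein copies are so alike that their probes may cross-hybridize. FKBP5, a co-chaperone of the glucocorticoid receptor that androgens induce as well, fell by 0.29 ± 0.063 on day 1 (limma adjusted p = 0.0023) and rose by 0.21 on day 2 (limma adjusted p = 0.016). DDIT4, an inhibitor of the mTOR complex, was 10.60 to 10.85 with vehicle and 12.38 to 12.57 with Dox on day 1 and 12.84 to 12.93 and 12.5 to 12.67 on day 2. Its log2 difference was thus 1.74 ± 0.065 on day 1 (limma adjusted p = 4.3e-12) and -0.30 ± 0.065 on day 2 (limma adjusted p = 0.0017), and it rose by 2.11 between the days with vehicle (limma adjusted p = 4.9e-12). In this list 7 of 27 genes rose and 1 fell with vehicle between the days, where 5.3% of all probes rose and 5.27% fell, or 11.2% and 11.2% of the detected probes.

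**Figure D4:**
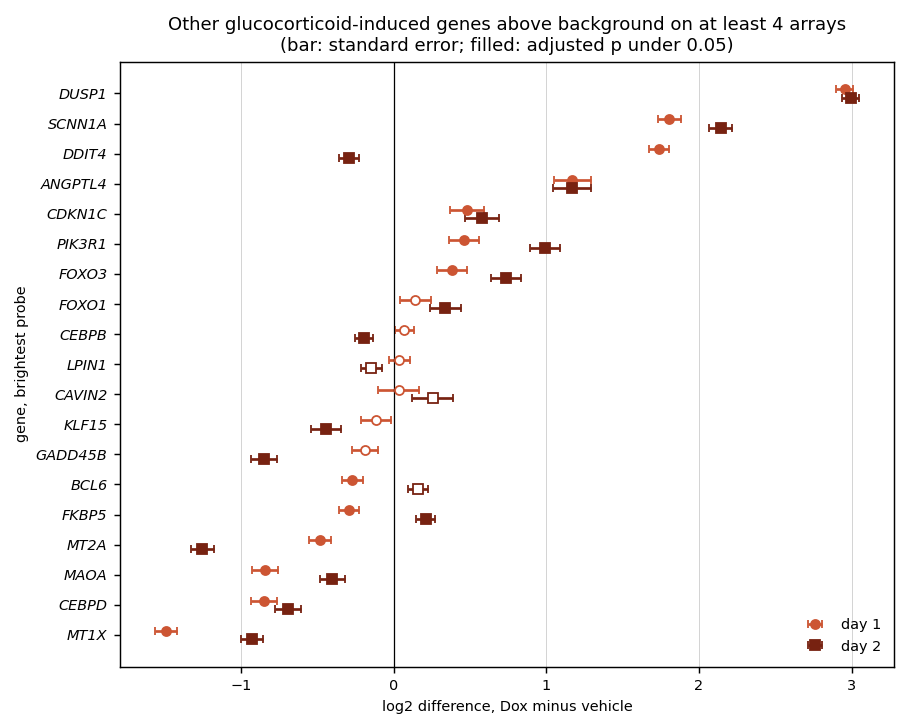
Log2 difference between Dox and vehicle (x axis, ± standard error, 4 arrays a group) on day 1 (orange circles) and day 2 (brown squares) for the 19 other glucocorticoid-induced genes above background on at least 4 arrays (y axis), filled where limma's adjusted p was under 0.05. DUSP1 lies near 3 on both days, DDIT4 lies at 1.74 on day 1 and -0.30 on day 2, and MT1X lies lowest on day 1 at -1.49.

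The receptors and enzymes that handle these hormones also differed between Dox and vehicle. The glucocorticoid receptor gene NR3C1 (3 probes) had a log2 signal of 4.5 to 5.49 on its brightest probe over all arrays and was above background on 1 of the 16, so its change was not detectable. NR3C2, the mineralocorticoid receptor, was 5.63 to 6.07 with vehicle and 6.35 to 6.63 with Dox on day 1, and 5.54 to 5.85 and 7.03 to 7.20 on day 2, without overlap. It rose by 0.68 ± 0.092 (limma adjusted p = 3.1e-05) and 1.41 ± 0.092 (limma adjusted p = 1.1e-09). HSD11B2, the enzyme that inactivates cortisol, rose by 1.96 ± 0.096 (3.89-fold, limma adjusted p = 1.1e-10) and by 3.28 ± 0.096 (9.74-fold, limma adjusted p = 3.6e-14). PGR, the progesterone receptor, and HSD11B1, which regenerates cortisol, were not above background on any array. Of the 13 genes measured in this list 2 were higher and 5 lower on day 1 (median -0.10) and 2 higher and 7 lower on day 2 (median -0.17). Those that fell on day 2 included the receptor chaperones FKBP4 (-0.69, limma adjusted p = 1.4e-07) and PTGES3 (-0.66, limma adjusted p = 4.3e-05).

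Of 17 measured inflammatory genes that glucocorticoids repress, such as IL6, CXCL8 and PTGS2, none was above background on as many as 4 arrays, so that repression could not be read. IL11 alone passed, on day 2, at -0.32 with both groups not above background (limma adjusted p = 0.023).

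In the SGK kinase pathway 16 genes were measured, with 3 higher and 1 lower on day 1 and 5 higher and 3 lower on day 2 (medians 0.01 and 0.04). Beside SCNN1A, the SGK1 substrates FOXO3 and GSK3B rose, FOXO3 by 0.38 (limma adjusted p = 0.0093) and 0.73 (limma adjusted p = 1.0e-05) and GSK3B by 0.62 (limma adjusted p = 3.5e-06) and 0.54 (limma adjusted p = 7.4e-06). NEDD4L fell by 0.40 on day 1 (limma adjusted p = 0.0086) and was at -0.16 on day 2 (limma adjusted p = 0.29). AKT1, a kinase of the same family as SGK1, was at -0.15 on day 1 (limma adjusted p = 0.39) and fell by 0.53 on day 2 (limma adjusted p = 3.9e-04). The upstream kinase PDPK1 was at -0.15 and 0.03 (limma adjusted p = 0.34 and 0.89). NDRG1, an SGK1 substrate, was at 0.20 on day 1 (limma adjusted p = 0.12) and fell by 0.43 on day 2 (limma adjusted p = 6.8e-04), while its vehicle level rose by 1.03 (limma adjusted p = 8.9e-07). These are RNA levels of substrates and kinases, and SGK1 activity was not measured.

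Among 9 measured relatives of the members, 5 were higher and 1 lower on day 1 and 4 higher and 1 lower on day 2 (medians 0.41 and 0.18), or 3 higher on each day without the genes above background on fewer than 4 arrays. KLF13, a zinc finger factor related to KLF9, rose by 0.93 (limma adjusted p = 2.8e-07) and 0.79 (limma adjusted p = 7.0e-07). ZFP36L1, which like ZFP36L2 destabilizes AU-rich mRNAs, rose by 0.53 (limma adjusted p = 7.2e-05) and 1.18 (limma adjusted p = 1.4e-09). TSC22D1 rose by 0.50 (limma adjusted p = 0.025) and 1.15 (limma adjusted p = 7.0e-06), where the day 1 call was lost in 6 of 24 alternatives, among them those without replicate 3 of vehicle day 1 (0.34) or replicates 2, 3 or 4 of Dox day 1. TSC22D2 fell by 0.26 on day 1 and 0.24 on day 2 (limma adjusted p = 0.034 and 0.031), calls lost in 9 and 7 of 24 alternatives. The first was lost without any 1 vehicle array of day 1 or without replicate 1, 2 or 3 of Dox day 1, and the second without replicate 1 or 2 of vehicle day 2 or replicate 1, 2 or 3 of Dox day 2, with values of -0.29 to -0.18 and -0.33 to -0.16 over all alternatives. SGK2 and RASD2 passed on day 1 (0.41 and 0.47), and RASD2 also on day 2 (0.32), at signals above background on 1 and 2 arrays only.

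The clock genes around PER1 were split, with 4 of 17 higher and 2 lower on day 1 and 6 higher and 4 lower on day 2 (medians 0.07 and -0.01). The day 2 counts include BHLHE41 (higher) and NR1D2 (lower), which were above background on no array, and are 5 and 3 without them. NFIL3, a repressor of clock outputs, rose by 0.55 (limma adjusted p = 3.1e-04) and 0.85 (limma adjusted p = 1.1e-06), and the clock kinase CSNK1D by 0.54 (limma adjusted p = 2.3e-07) and 0.60 (limma adjusted p = 1.8e-08). PER2, the relative of PER1 that glucocorticoids also induce, was at -0.17 and -0.08 (limma adjusted p = 0.088 and 0.45). BHLHE40, a repressor of the clock, rose by 0.53 on day 1 (limma adjusted p = 7.6e-06) and fell by 0.56 on day 2 (limma adjusted p = 1.6e-06), with a rise of 1.12 in vehicle between the days (limma adjusted p = 1.1e-08).

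Around ERRFI1, 13 genes of the EGF receptor family and its ligands were measured, with 3 higher and 1 lower on day 1 and 2 higher and 3 lower on day 2 (medians 0.18 and 0.01). EGFR rose by 0.55 on day 1 (limma adjusted p = 6.1e-06) and fell by 0.20 on day 2 (limma adjusted p = 0.024), a call lost in 5 of 24 alternatives, among them those without replicates 2 or 4 of vehicle day 2 or of Dox day 2. LRIG1, which like MIG6 restrains EGF receptors, rose by 0.57 (limma adjusted p = 2.2e-05) and then lay 0.75 below vehicle on day 2 (log2 difference -0.75, limma adjusted p = 2.9e-07).

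Serum and MAP kinase immediate early genes, which share inducers with SGK1 and DUSP1, had 1 of 19 higher and 5 lower on day 1 and 2 higher and 6 lower on day 2 (medians -0.08 and 0.03). The transcription factor JUN rose by 0.45 (limma adjusted p = 2.4e-05) and 1.07 (limma adjusted p = 1.7e-10), and the stress-induced factor ATF3 fell by 0.93 (limma adjusted p = 8.1e-07) and fell by 1.97 (limma adjusted p = 1.4e-11). FOS, FOSL1 and EGR1 were not above background on any array, and FOS is 1 of the 6 lower on day 2. Of 14 measured androgen-induced genes 2 were higher and 7 lower on day 1 and 4 higher and 6 lower on day 2 (medians -0.17 and -0.22). KLK2, the androgen-induced kallikrein whose pattern was among those most like RASD1, rose by 1.92 and 1.66. The authors had already reported the KLK2 rise, so it carries no p-value here. The prostate transporter gene SLC45A3 fell by 1.41 (limma adjusted p = 2.2e-11) and 1.78 (limma adjusted p = 2.2e-13).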

How the data were processed

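Expression was measured in 16 cultures with 1 Illumina HumanRef-8 version 3 array each. The deposited signal intensities are mean bead signals from BeadStudio, neither background-corrected nor scaled by the authors, and the deposited detection p-values give the share of the 664 negative controls of an array that were brighter than a probe. The authors' deposited log2 table (model-based background correction and quantile normalization) served as an alternative. Here the signals were corrected with limma's normal-exponential model (offset 16), quantile normalized and taken to log2, which compresses the differences of dim genes. The 4 group means were fitted to all 16 arrays with lmFit and eBayes (R 4.3.3, limma 3.58.1, statmod 1.5.0). Adjusted p-values are two-sided, by Benjamini-Hochberg over 24526 probes, with a threshold of 0.05. A simulation with changes placed only in probes above background on all 16 arrays recovered 50 of 50 changes of 1 log2 unit and 40 of 50 of 0.5. Recovery for dimmer probes was not tested.

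Symbols came from the platform annotation (21834 probes with 1 symbol, 2692 with none). A gene outside the set stands by its brightest probe. From each of 9 lists the text could name up to 4 genes a day that passed and were above background on 4 arrays of a group, with the receptors and the relatives; FKBP5, NDRG1, PDPK1 and the genes given for not passing were named after their values were seen. The members and lists were chosen with earlier results of these data known, and 5 genes are in more than 1 list. The number of arrays limits the precision. Alternatives were the background correction, offset, normalization, the authors' table, a filter on dim probes, the replicate number as a block, ordinary variances, the arrays in the fit, the mean of a gene's probes, and each array left out.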

Additional observations from a re-analysis of the deposited data

Results flagged for a closer look

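The interaction of day and treatment passed the threshold for 5 genes of the set. The Dox difference grew for SGK1 (1.21) and ZFP36L2 (1.60), and shrank or turned for TSC22D3 (-1.06 and -1.15 on its 2 bright probes), RASD1 (-0.40) and KLF9 (-0.28). For RASD1 and KLF9 the call held in 9 and 8 of 25 alternatives, and the sign for RASD1 turned in 1. SGK1 and RASD1 were picked with their values of both days known, and those of ZFP36L2 were known as well.

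Of 46 groups of 4 arrays tested, 4 had 1 array far from the other 3, and chance flags about 1 group in 20. SGK3 (ILMN_2366703) was at 7.81 in replicate 2 of vehicle day 1, against 7.49 to 7.53 in the others. TSC22D3 (ILMN_2376403) was at 9.43 in replicate 3 of vehicle day 2, against 9.62 to 9.65. KLF9 was at 10.24 in replicate 1 of vehicle day 2, against 10.02 to 10.05, and at 9.99 in replicate 3 of Dox day 2, against 10.12 to 10.13.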

How the results depend on the processing

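Counts of probes, genes of the set and other glucocorticoid-induced genes were recomputed under 25 alternatives. Of these 590 counts, 578 stayed within 1.5 times the value given. The counts of the other lists are not among the 590, and some moved. Relatives lower on day 1 went from 1 to 2 without background correction and to 0 with cyclic loess normalization. In the receptor, chaperone and enzyme list, 5 were lower on day 1, and 3 with the mean of a gene's probes. The count of genes of the set whose Dox difference shifted downward between the days was 3, and was 1 with the authors' normalized table and 1 to 2 with 1 array left out, since the adjusted p-values of RASD1 and KLF9 lay just under the threshold. The number of probes that fell with vehicle from day 1 to day 2 was 1292, and 831 with the authors' table. The shift of RASD1 was 0.13 (limma adjusted p = 0.30) without background correction, in place of -0.40, and -0.07 with an offset of 50. The second SGK3 probe lost its day 2 call in 8 of 24 alternatives, among them those without replicates 1, 2 or 4 of vehicle day 2 or replicates 1 (-0.22) or 4 of Dox day 2. The differences of SGK1 and ZFP36L2 on both days, of RASD1 on both days and of the 2 bright TSC22D3 probes on day 2 kept direction and call under every alternative, but not size. The lowest log2 values, without background correction, were 3.30 and 4.44 for SGK1, 3.03 and 3.15 for RASD1 and 0.76 and 1.59 for ZFP36L2 on days 1 and 2, and the TSC22D3 probes came as near 0 as -0.52 and -0.85 on day 2. Same-numbered arrays of vehicle and Dox deviated together by r = -0.058 to 0.208, so the numbers were not taken as pairs. Between the days of a treatment the values were -0.0164 to 0.478 for vehicle and 0.0458 to 0.526 for Dox, and replicate 1 correlated best with its own number in all 4 comparisons of groups. With the replicate number as a block, 2152 probes were higher on day 1 (2185 without it) and 2 genes of the set shifted downward, RASD1 and KLF9 missing the threshold (limma adjusted p = 0.057 each). Genes near background, PER1 and NR3C1 among them, are limited by signal.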
